A study of Rattus norvegicus with 10 samples.

Results

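Cytosolic ribosomal protein genes encode the proteins of the ribosome that reads messenger RNA outside mitochondria. They were taken from a deposited rat lung count table as every row whose gene name starts with Rpl or Rps and a digit, or with Rplp and a digit, or is Rpsa, leaving out S6 kinase names and names that hold -ps. This gave 99 rows of 22250, with 89 different names, and 88 of them passed the filter on low counts that left 14320 genes for testing. Messenger RNA of lung tissue was measured by RNA sequencing in 10 libraries, 5 named XBS and 5 named MOD. The design text describes rats made asthmatic with lipopolysaccharide and ovalbumin, with neutrophils as the leading inflammatory cell, and then given the herbal Shuangpi Formula (SP). The labels expand neither XBS nor MOD, tie neither name to SP and give no strain, dose, time or age, so the groups are called by their names. Whether each library is a separate animal is not in the labels, so every p-value below weighs a difference against the spread of 5 libraries a group, which could be technical.

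Each ribosome holds a large and a small subunit, and nearly every protein is present in a single copy, so its genes are usually expressed at similar levels. The small subunit decodes the messenger RNA, the large subunit joins amino acids, and a stalk of acidic proteins on the large subunit recruits the elongation factors. In mammals most of these messenger RNAs begin with a C and a run of pyrimidines, the 5′ terminal oligopyrimidine tract, through which mTOR and LARP1 control their translation. Translation is not measured by RNA sequencing of whole tissue. In lung tissue, fewer cells of a type and less RNA per cell cannot be told apart.

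The tract is shown here for members whose levels are described below, as the 15 bases before and the 15 bases from the annotated start of transcription in RefSeq (rat build GRCr8), with the longest pyrimidine run in capitals where it has 5 bases or more. Rplp0 (chr12:46718376-46718405, minus strand), Rplp1 (chr8:71290858-71290887, minus strand), Rpl10 (chrX:157205835-157205864, plus strand), Rpl31 (chr9:49143096-49143125, plus strand) and Rps27 (chr2:177964592-177964621, minus strand) have a C as first transcribed base within such a run.
Rplp0: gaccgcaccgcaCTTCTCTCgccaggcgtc
Rplp1: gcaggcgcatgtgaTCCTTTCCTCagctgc
Rpl10: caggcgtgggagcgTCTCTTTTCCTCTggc
Rpl31: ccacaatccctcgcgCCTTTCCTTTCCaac
Rps27: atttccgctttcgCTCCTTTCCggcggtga
The windows of Rpl3 (chr7:113507976-113508005, minus strand), Rpl7l1 (chr9:21695703-21695732, plus strand), Rps27l (chr8:76443643-76443672, plus strand) and Rps19bp1 (chr7:113693009-113693038, minus strand) show a start without that pattern.
Rpl3: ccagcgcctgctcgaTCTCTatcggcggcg
Rpl7l1: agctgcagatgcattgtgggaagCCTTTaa
Rps27l: gtttattcatttgtcattatttgtggtgtc
Rps19bp1: cagcgtgtgggcggggcttggcagcatgtc
Promoter windows matched 67 of the 89 member names, with 68 start sites. A C at the start followed by at least 4 pyrimidines was found at 21 of these 68 starts (30.9%), against 2.63% of all 33469 windows in the RefSeq table. A run of at least 8 pyrimidines within 15 bases of the start was found at 41 member starts (60.3%), against 11.4% of all windows. Genes of mitochondrial ribosomal proteins, a set chosen after their values were seen, held these patterns at 3.08% and 13.8% of 65 starts. Other genes listed as having the tract held them at 0% and 50% of 16 starts. The first pattern, read at annotated starts, can therefore miss genes listed as having the tract. In the 300 bases around the start, on both strands, CCGGAAG, the core bound by ETS factors, occurred in 29.4% of member windows and 8.75% of all windows. That core is not particular to members. It occurred in 32.3% of windows of mitochondrial ribosomal protein genes, 30.3% for initiation factors and 45.9% for ribosome biogenesis factors. For elongation factors it was 12.5% of 8 windows. CACGTG, the E-box bound by MYC and CLOCK, occurred in 7.35% of member windows and 6.42% of all windows, and TATAAA in 13.2% of member windows and 14.2% of all windows. These matches describe letters in the annotation and show no binding.

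None of the 88 tested members was called different between XBS and MOD, which does not show that their levels were equal. By edgeR's quasi-likelihood test with Benjamini-Hochberg adjustment, 0 of 88 passed an adjusted p of 0.05, where 0.0768% of all 14320 genes passed (11 genes), 0.0279% higher and 0.0489% lower in XBS. DESeq2 also called 0 of 88, where 2.29% of 14408 genes passed. On simulated counts the edgeR fit called 41.2% of the genes changed 1.5-fold, 77.8% of those changed 2-fold and 91.2% of those changed 4-fold. Changes of 1.5-fold or less can thus often be missed, and some larger ones too. At an unadjusted p under 0.05 there were 4 members (Rpl3, Rpl10, Rplp1 and Rplp0, all higher in XBS), 4.55% of those tested, against 13.2% of all genes in either direction, 7.40% higher and 5.78% lower in XBS. Without library XBS 2 there were again 4, with Rpl39, Rpl30 and Rpl36al lower and Rpl3 higher in XBS, against 10.7% of all genes. Member rows held 2.53% of the CPM of all rows whose symbol or description names L39, and 74.6% for L30. With all 10 libraries, these rows summed had a log2 fold change of -0.007 for L39 and 0.02 for L30. The 5 XBS libraries did not lie apart from the 5 MOD libraries in any member, whereas they did in 2.74% of all genes tested, 1.61% higher and 1.13% lower in XBS.

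The members' log2 fold changes were small and mostly positive. Their median was 0.11 (from -0.21 to 0.48), against 0.01 over all genes tested, and 73 of 88 were positive, against 51.9% of all genes. Members at 50 CPM or more, where CPM is the read count scaled to library size, numbered 64 and had a median of 0.13 (quartiles 0.06 and 0.18), against -0.02 in 4624 other genes at that level. This lean rested on library XBS 2: without it the median was -0.007 and 42 of 88 were positive, against 53.1% of all genes. Of the 73 members with a positive fold change, 32 turned negative without XBS 2. The lowest adjusted p of any member was 0.329 with all libraries and 0.374 without XBS 2, where 0.0277% of all genes and 0 members passed with edgeR.

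**Figure D1:**
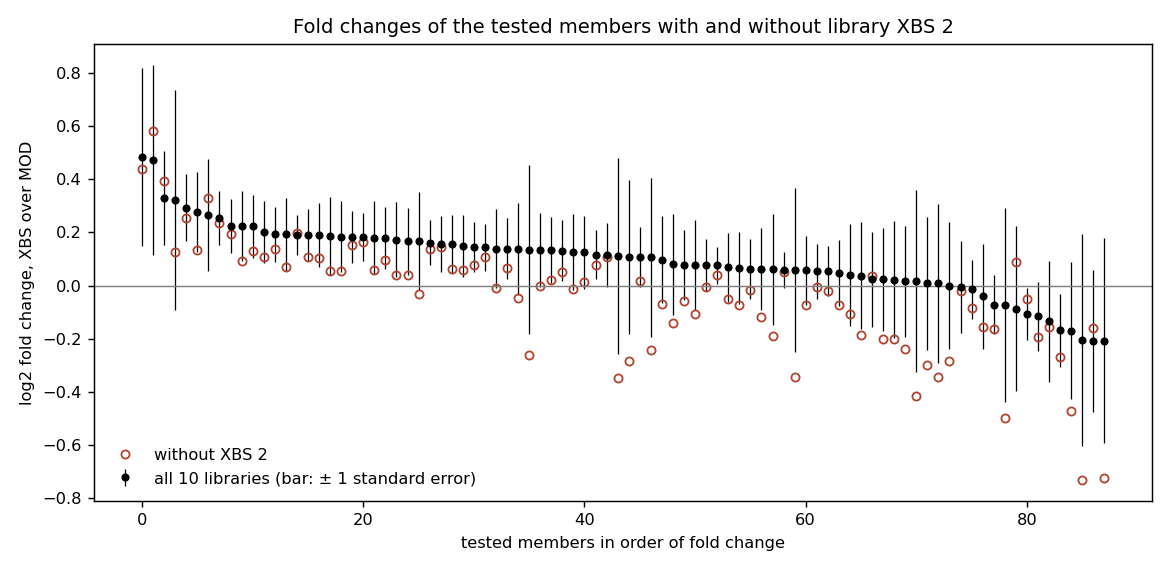
Log2 fold change, XBS over MOD, of the 88 tested members in order, from the fit of all 10 libraries (black, bar ± 1 standard error) and of 9 libraries without XBS 2 (open red). The black points run from 0.48 to -0.21 with 73 above 0, and 42 of the open points lie above 0.

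The summed level showed the same library. All 99 rows together made 33859, 41476, 32959, 27444 and 29842 CPM in XBS 1 to 5, and 33131, 29062, 28498, 28453 and 31950 CPM in MOD 1 to 5. XBS 2 was the highest and XBS 4 the lowest of all 10 libraries, and the groups overlapped. The mean was 33116 ± 5323 CPM in XBS and 30219 ± 2174 CPM in MOD (SD, n = 5), a ratio of 1.10 that was 1.03 without XBS 2.

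Large and small subunit sums kept a narrow ratio across libraries. Large subunit rows (56, stalk not counted) averaged 16991 ± 2724 CPM in XBS and 15695 ± 1090 CPM in MOD (SD, n = 5), a ratio of 1.08 that was 1.01 without XBS 2. Small subunit rows (38) averaged 13781 ± 2411 CPM in XBS and 12545 ± 865 CPM in MOD, a ratio of 1.10 that was 1.02 without XBS 2. The large subunit's sum was 1.21 to 1.27 times that of the small subunit in XBS and 1.23 to 1.28 times in MOD. The 4 stalk rows had 2452, 2538, 2390, 2041 and 2166 CPM in XBS 1 to 5, and 2237, 1660, 1910, 1732 and 2217 CPM in MOD 1 to 5. MOD 2 and MOD 4 were the lowest for the stalk, the groups overlapped, and the ratio of means was 1.19 with XBS 2 and 1.16 without it.

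**Figure D2:**
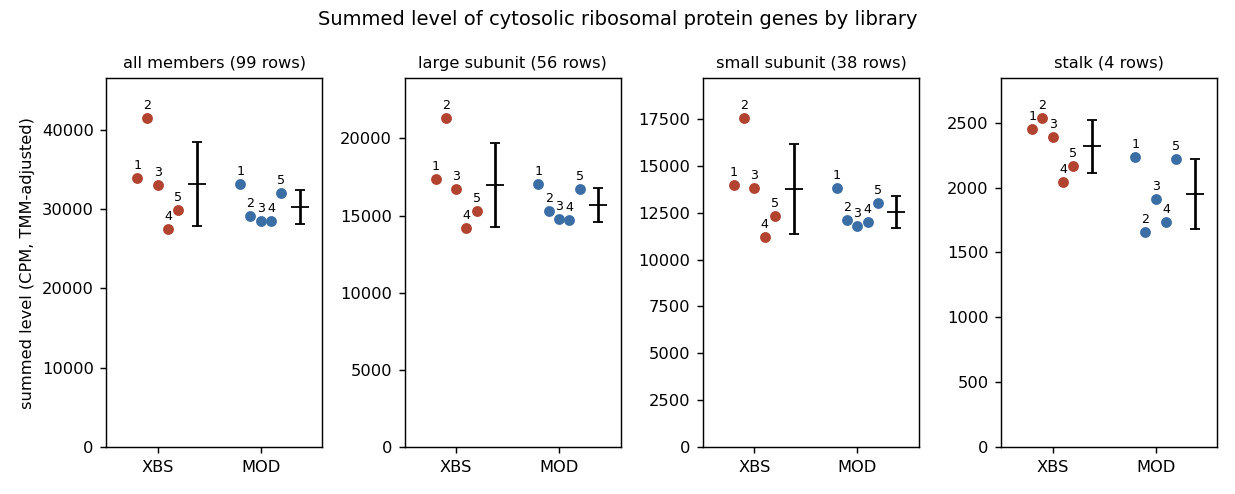
Summed CPM of all members, of the large subunit, the small subunit and the stalk in each library (points numbered by replicate, XBS red and MOD blue), with the group mean and SD as black bars. XBS 2 is the highest library in every panel, at 41476 CPM for all members, and MOD 2 is the lowest for the stalk, at 1660 CPM.

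The stalk held the members of highest level. Per kilobase of gene length, the level was highest for Rplp1 (1445 CPM per kilobase), Rplp0 (1297), Rpl41 (1280) and Rps2 (1159). Rplp0, the base of the stalk (ENSRNOG00000001148, chromosome 12 from 46791528 to 46794797 by the table's own positions, of a build not given in the sources used here), had 1564, 1665, 1604, 1371 and 1434 CPM in XBS 1 to 5, and 1452, 1128, 1235, 1203 and 1517 CPM in MOD 1 to 5. MOD 1 and MOD 5 lay among the XBS libraries and the other MOD libraries lay below all of them. Its log2 fold change was 0.23 ± 0.10 (SE), with edgeR adjusted p = 0.375. Rplp1, an acidic stalk protein that touches the elongation factors (chromosome 8 from 66862143 to 66863476), had 887, 872, 785, 670 and 732 CPM in XBS 1 to 5, and 785, 532, 675, 529 and 700 CPM in MOD 1 to 5. Again MOD 2 and MOD 4 were lowest, and the groups overlapped. Its log2 fold change was 0.29 ± 0.13 (SE; edgeR adjusted p = 0.362), and 0.25 without XBS 2. The partner of Rplp1 in the stalk, Rplp2, had 0.0740 and 0.0673 CPM in XBS 2 and XBS 3 and 0 in every other library, under the floor of 3 counts. All 4 rows whose symbol or description names the P2 protein had 103 CPM together, so that nearly all of its reads stood in rows of other names.

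Among large subunit proteins, Rpl10 and Rpl3 had the smallest p. Rpl10, a protein that joins late and is needed for the subunit to become active (ENSRNOG00000056765, chromosome X from 156438251 to 156440461), had 1016, 990, 980, 859 and 860 CPM in XBS 1 to 5, and 867, 677, 780, 694 and 927 CPM in MOD 1 to 5. MOD 1 and MOD 5 reached the range of XBS, while MOD 2 and MOD 4 were lowest. Its log2 fold change was 0.25 ± 0.10 (SE), with edgeR adjusted p = 0.342. Rpl3, which lies close to the centre where amino acids are joined (ENSRNOG00000016896, chromosome 7 from 121297355 to 121311565), had 924, 883, 962, 840 and 879 CPM in XBS 1 to 5, and 841, 714, 822, 731 and 825 CPM in MOD 1 to 5. Only XBS 4 and MOD 1 overlapped. Its log2 fold change was 0.19 ± 0.08 (SE; edgeR adjusted p = 0.329), and 0.20 without XBS 2.

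Rpl5 and Rpl11, which bind MDM2 when ribosome assembly is disturbed, differed less. Rpl5 averaged 819 ± 71.2 CPM in XBS and 756 ± 80.7 CPM in MOD (SD, n = 5), with a log2 fold change of 0.12 ± 0.09 (SE; edgeR adjusted p = 0.595), and 0.08 without XBS 2. Rpl11 averaged 402 ± 66.7 CPM in XBS and 361 ± 24.9 CPM in MOD (SD, n = 5), with XBS 2 highest at 503 CPM and XBS 4 lowest at 328 CPM. Its log2 fold change was 0.16 ± 0.11 (SE; edgeR adjusted p = 0.54), and 0.06 without XBS 2.

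Among small subunit proteins, Rps2 and Rps4x had the smallest p. Rps2, which lies where the messenger RNA enters, had 1099, 1144, 1151, 988 and 1051 CPM in XBS 1 to 5, and 1066, 813, 974, 889 and 1043 CPM in MOD 1 to 5. MOD 2 and MOD 4 were lowest and the groups overlapped, with a log2 fold change of 0.18 ± 0.09 (SE; edgeR adjusted p = 0.417). The X-linked Rps4x averaged 643 ± 89.9 CPM in XBS and 563 ± 38.2 CPM in MOD (SD, n = 5), with a log2 fold change of 0.19 ± 0.10 (SE; edgeR adjusted p = 0.433). Without XBS 2 its log2 fold change was 0.11.

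**Figure D3:**
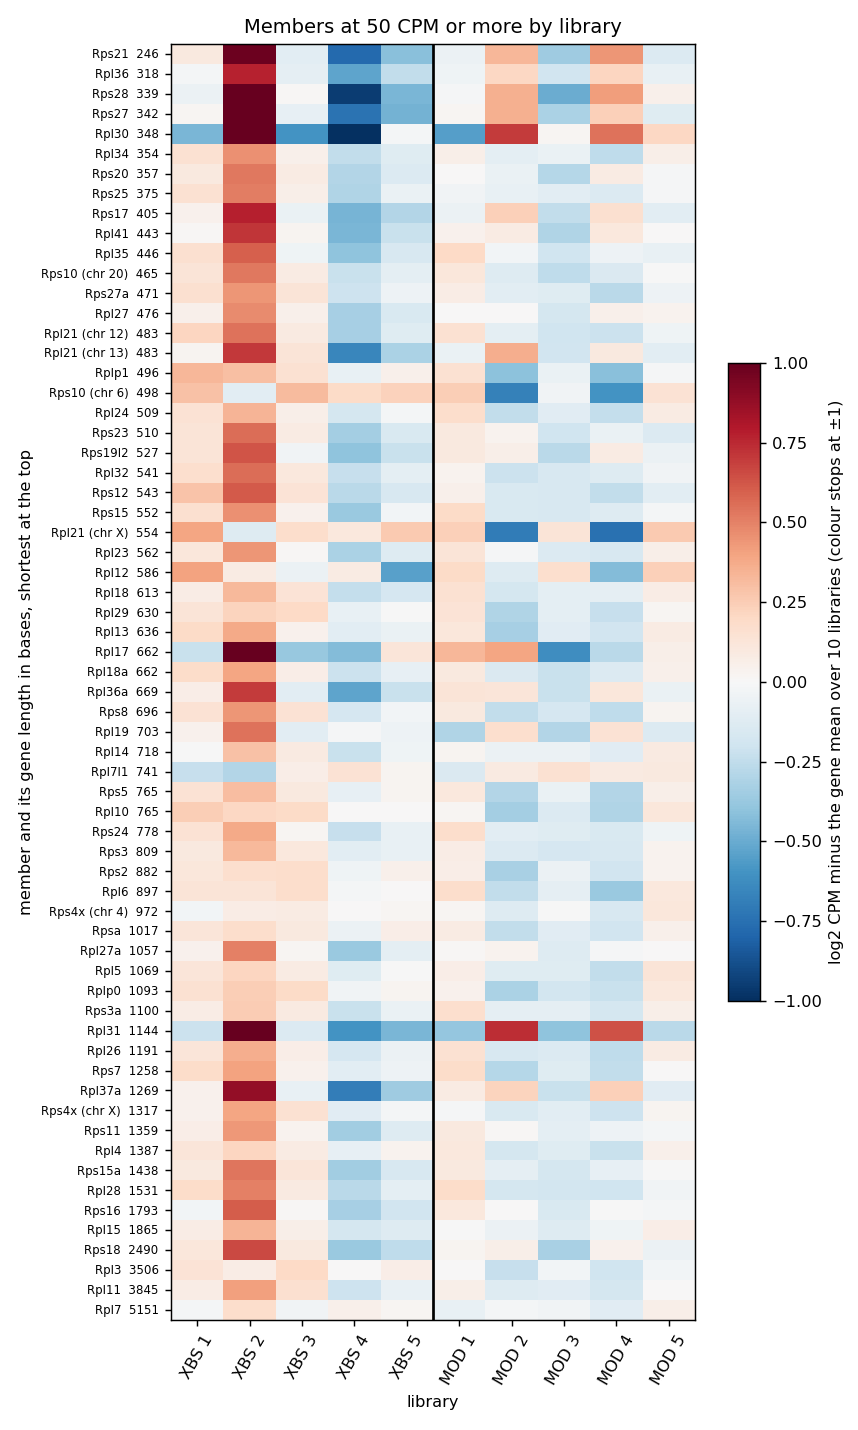
Log2 CPM minus the gene's mean over 10 libraries for the 64 members at 50 CPM or more, in order of gene length with the shortest at the top (red above and blue below the mean, colour ends at 1 and -1). The XBS 2 column is red in most rows and highest for 54 of them, the XBS 4 column is blue in most and lowest for 34, and several of the deepest colours stand among the short genes at the top.

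The libraries lay far apart, also within XBS. XBS 2 was the highest library for 54 of the 64 members at 50 CPM or more, against 18.9% of the 4624 other genes at that level. XBS 4 was the lowest for 34 of 64, and the share of other genes lowest in XBS 4 was not counted. The ratio of the highest to the lowest of all 10 libraries, across both groups, was 1.21 to 4.72 over the members. Its median was 1.71, against a median of 1.41 in the other genes. Rpl7 (ratio 1.22) and the Rps4x row on chromosome 4 (ratio 1.21) varied least.

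The 4 most variable members at 50 CPM or more, Rpl30, Rps28, Rps27 and Rps21, were under 400 bases, and those described next were named after their values were seen. Rpl30, a large subunit protein (chromosome 7 from 73213581 to 73216251), had 155, 488, 141, 104 and 210.1 CPM in XBS 1 to 5, and 146, 346, 216, 311 and 246 CPM in MOD 1 to 5. XBS 2, MOD 2 and MOD 4 were high, and the log2 fold change was -0.20 ± 0.40 (SE; edgeR adjusted p = 0.848). Without XBS 2 it was -0.73 (edgeR adjusted p = 0.379). All rows that name the L30 protein, summed, had a log2 fold change of 0.02 with all 10 libraries. Rps27, a zinc-finger protein of the small subunit (chromosome 2 from 189572176 to 189573280), had 227, 480, 211, 135 and 162 CPM in XBS 1 to 5, and 227, 287, 180, 264 and 207 CPM in MOD 1 to 5. Rps28, of the small subunit, had 80.6, 185, 84.7, 43.5 and 61.2 CPM in XBS 1 to 5, and 83.2, 108, 59.4, 112 and 87.2 CPM in MOD 1 to 5. Both were highest in XBS 2 and lowest in XBS 4, and MOD 2 and MOD 4 were the highest MOD libraries. The log2 fold change was 0.06 for Rps27 and 0.02 for Rps28, and without XBS 2 it was -0.34 and -0.42. Rpl31, of the large subunit and with a longer annotated gene length of 1144 bases, had 81.4, 203, 86.2, 62.4 and 68.8 CPM in XBS 1 to 5, and 72.2, 158, 71.6, 147 and 78.3 CPM in MOD 1 to 5. The same 3 libraries, XBS 2, MOD 2 and MOD 4, were the highest for Rpl31. Its log2 fold change was -0.07, and -0.50 without XBS 2.

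Median deviations in XBS 2 and XBS 4 were largest in the members under 400 bases. The 8 members under 400 bases and at 50 CPM or more had a median deviation from their gene means, on the log2 scale, of 0.06, 0.88, -0.04, -0.63 and -0.19 in XBS 1 to 5, and -0.02, 0.27, -0.23, 0.22 and -0.01 in MOD 1 to 5. The 18 other genes that short had -0.06, 0.21, 0.09, -0.24 and -0.19 in XBS 1 to 5, and -0.04, 0.15, -0.09, 0.10 and -0.03 in MOD 1 to 5. In both sets XBS 2 was the highest and XBS 4 the lowest library, with MOD 2 and MOD 4 the highest of MOD, and the members' deviations were the larger ones in XBS 2 and XBS 4. The 6 members of 1600 bases or more stood at 0.37 in XBS 2 and -0.19 in XBS 4, where the 3865 other genes that long stood at -0.01 and -0.02. Across the 64 members, which share each library's depth, Spearman's correlation of gene length with the deviation was -0.11, -0.41, 0.25, 0.38 and 0.29 in XBS 1 to 5, and 0.08, -0.24, 0.25, -0.19 and 0.17 in MOD 1 to 5. In the 4624 other genes it was 0.01, -0.11, -0.24, 0.05 and 0.14 in XBS 1 to 5, and 0.004, 0.04, 0.18, 0.04 and -0.05 in MOD 1 to 5. The sign differed between members and other genes in XBS 1, XBS 3, MOD 2, MOD 4 and MOD 5. The summed level of members under 400 bases was 1973 ± 734 CPM in XBS and 1901 ± 200 CPM in MOD (SD, n = 5), a ratio of 1.04 that was 0.873 without XBS 2.

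**Figure D4:**
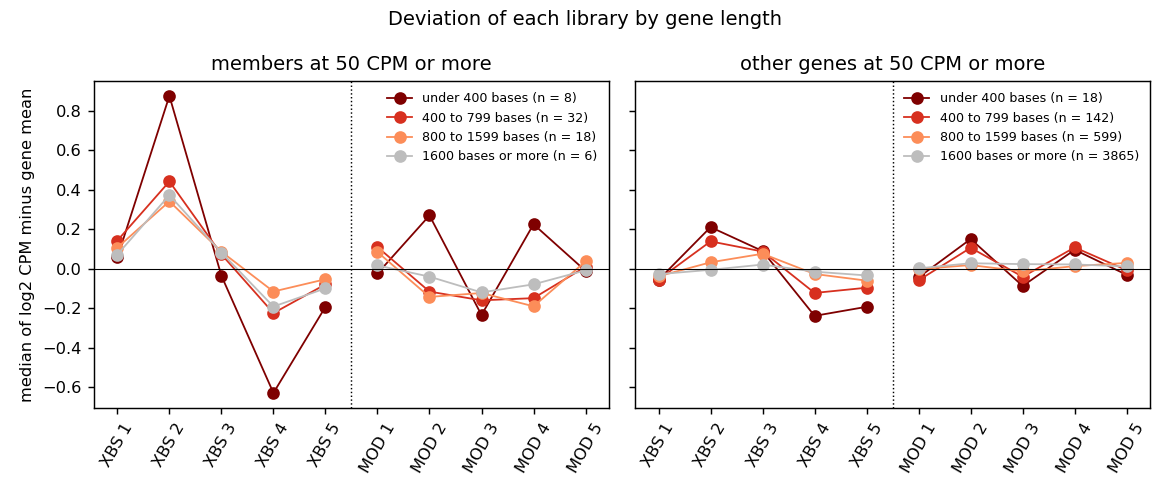
Median over genes of log2 CPM minus the gene mean, by library and gene length class, for the 64 members (left) and 4624 other genes (right) at 50 CPM or more. Members under 400 bases reach 0.88 in XBS 2 and -0.63 in XBS 4, and other genes of that length 0.21 and -0.24.

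Markers of other cells also stood apart in some of these libraries. The neutrophil list (14 genes, 12 tested, none at 0 in all libraries) summed to 357, 839, 410, 361 and 281 CPM in XBS 1 to 5, and 288, 303, 277, 482 and 254 CPM in MOD 1 to 5, with XBS 2 highest and MOD 4 next. None of its tested genes passed. Ciliated cell markers (11 tested, none passed) summed to 651, 379, 379, 1104 and 948 CPM in XBS 1 to 5, against 730 to 893 CPM in MOD, and club cell markers (7 tested, of which Cyp4b1 fell with edgeR, adjusted p = 0.0104, a call kept in 17 of 21 alternatives) to 2646 and 2844 CPM in XBS 2 and XBS 3, 8208 to 9400 CPM in the other XBS libraries and 8362 to 12556 CPM in MOD. XBS 2 was thus high for ribosomal protein genes and neutrophil genes and low for airway epithelial genes, while XBS 3, as low for airway genes, had a member sum of 32959 CPM. The proliferation list (11 tested) held 2 genes that rose with edgeR, Bub1 (adjusted p = 0.0412) and Mki67 (adjusted p = 0.0445). Bub1 no longer passed in 14 of 21 alternatives, and Mki67 in 12, among them the fits without MOD 2, MOD 3, MOD 4, MOD 5, XBS 2, XBS 3 or XBS 4. The list summed to between 307 and 404 CPM in the XBS libraries, against 260 to 279 CPM in MOD. B cell markers (11 tested, none passed) had sums of 209 to 358 CPM in XBS, against 159 to 276 CPM in MOD. Alveolar type 2 markers, which mark lung, had sums of 29396 to 67019 CPM in XBS, against 44002 to 58197 CPM in MOD. No tested alveolar type 1, endothelial, erythroid, macrophage or T cell gene passed. Alveolar type 1 genes had 10 negative and 0 positive fold changes, endothelial genes 7 and 1, and erythroid genes 8 and 1. Macrophage genes had 0 negative and 7 positive, and T cell genes 3 and 13. At an unadjusted edgeR p under 0.05 there were 5, 4, 3, 3 and 2 genes, in the order named. T cell sums were highest in XBS 3 (353 CPM) and XBS 2 (350 CPM). The part of these cells and of gene length in the members' values was not tested. Values without XBS 2 are given for some results only, and a result without one may also rest on that library. The other gene lists and the start patterns below have values from all 10 libraries only.

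No paralogue passed the test. Rps27l, a p53-induced paralogue of Rps27 in human cells, had 29.8, 43.0, 35.0, 28.1 and 33.1 CPM in XBS 1 to 5, and 29.96, 43.5, 35.1, 43.7 and 37.7 CPM in MOD 1 to 5. XBS 2, MOD 2 and MOD 4 were again the highest, and the log2 fold change was -0.17 ± 0.14 (SE; edgeR adjusted p = 0.6), and -0.27 without XBS 2. Rpl7l1, a paralogue of Rpl7, had 45.4, 43.4, 55.7, 58.7 and 54.4 CPM in XBS 1 to 5, and 48.0, 56.7, 59.1, 56.7 and 57.0 CPM in MOD 1 to 5. It was lowest in XBS 2, unlike most members, with a log2 fold change of -0.11 ± 0.10 (SE; edgeR adjusted p = 0.646), and -0.05 without XBS 2. Rpl7 itself averaged 893 ± 54.5 CPM in XBS and 847 ± 38.3 CPM in MOD (SD, n = 5). Rpl22l1, the paralogue of Rpl22, averaged 36.2 ± 8.25 CPM in XBS and 31.7 ± 1.28 CPM in MOD, with XBS 2 highest at 48.1 CPM (log2 fold change 0.19 ± 0.14 SE, edgeR adjusted p = 0.549, and 0.07 as log2 fold change without XBS 2). Rpl36al averaged 15.7 ± 6.84 CPM in XBS and 17.6 ± 3.70 CPM in MOD, and its partner Rpl36a averaged 172 ± 59.6 CPM in XBS and 169.6 ± 17.5 CPM in MOD (SD, n = 5 each). The log2 fold change was -0.17 for Rpl36al and 0.02 for Rpl36a, and without XBS 2 it was -0.47 and -0.20. Rpl3l, which replaces Rpl3 in striated muscle of mice and humans, stayed under 1 CPM in all 10 libraries, and Rpl10l, known from the testis in mice and humans, averaged 3.00 ± 1.11 CPM in XBS and 2.17 ± 1.04 CPM in MOD. The other tested paralogue rows (Rps19l2 on chromosomes 1 and 9, Rps4y2, Rps18l1, Rpl35al1 and Rps15al4) averaged 1.01 to 174 CPM in either group. Near-identical copies may share reads, and the sources used here do not give how such reads were counted.

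The naming rule also took 1 row that is no ribosomal protein and many rows with few reads. Rps19bp1 encodes a protein that binds ribosomal protein S19 and SIRT1 and is no subunit of the ribosome, and it averaged 26.9 ± 4.09 CPM in XBS and 28.3 ± 2.63 CPM in MOD (SD, n = 5; log2 fold change -0.07 ± 0.11 SE, edgeR adjusted p = 0.809, and -0.16 as log2 fold change without XBS 2). Of the 99 rows, 21 had a genomic span equal to the gene length, as a copy without introns has, and 17 lay on another chromosome than the GRCr8 gene of that name in RefSeq. The 21 rows had a median of 4.63 CPM over the 10 libraries, and the 78 others a median of 378 CPM. Rpl8, of the large subunit, averaged 10.2 ± 1.43 CPM in XBS and 11.0 ± 1.18 CPM in MOD (SD, n = 5; log2 fold change -0.12 ± 0.13 SE, edgeR adjusted p = 0.717, and -0.19 as log2 fold change without XBS 2). The Rps6 row, named for the target of S6 kinase, had 1.37 ± 0.28 CPM in XBS and 1.59 ± 0.46 CPM in MOD, and the row named Rpl9 had 2.10 ± 0.22 CPM in XBS and 1.499 ± 0.70 CPM in MOD (SD, n = 5 each). Of the 11 rows that were not tested, Rpl10a, Rpl23a and Rplp0l1 had 0 counts in every library. The other 8 (Rplp2, Rpl3l, Rpl38, Rps10l1, Rpl39l, Rpl30l1, a row of Rpl35al1 and the Rpl21 row on chromosome 3) were at most 2.08 CPM in any library, the value of Rpl39l in XBS 5. Of 8 names on more than 1 row, Rpl21 had 4 rows and Rpl32, Rpl35al1, Rpl7a, Rps10, Rps19l2, Rps27a and Rps4x had 2.

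**Figure D5:**
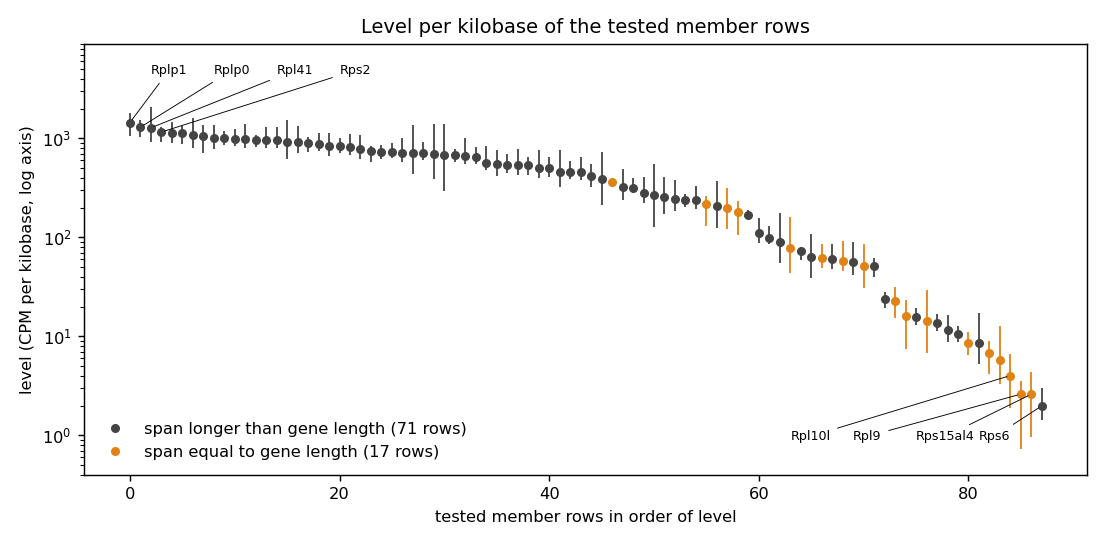
Mean level per kilobase of gene length of the 88 tested members in order (log axis), with the range over 10 libraries as a line, for rows with a span longer than the gene length (dark) and equal to it (orange). Levels run from 1445 CPM per kilobase for Rplp1 to 1.99 for Rps6, and most orange rows lie in the lower part.

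Rows were also summed by protein, which uses the same libraries and most of the same reads. Symbols and row descriptions in the table named 79 ribosomal proteins over 186 rows, of which 96 rows were not members because they carry a clone-based or other name. For 5 proteins (L22, L40, S14, S26 and S30) the rule takes no row, and for 8 others the member rows held under 10% of the protein's CPM. All rows for L9 had 583 CPM, of which 1.80 CPM was in the row named Rpl9, and all rows for S29 had 260 CPM, of which 1.76 CPM was in the row named Rps29. Even so, 5 proteins (L10A, L23A, L38, S26 and S30) had under 10 CPM over all their rows. Of 78 proteins tested, 0 passed with edgeR, where 0.0771% of all 14275 genes in that fit passed, and 5 (6.41%) had an unadjusted p under 0.05, where 13.2% of all genes did. Their median log2 fold change was 0.13 and 72 of 78 were positive, against 51.9% of all genes in that fit. Here too the lean rested on XBS 2: without it the median was 0.01 and 41 of 78 were positive, against 53.2% of all genes, and 0 proteins passed, where 0.0278% of all genes did. The ratio of the summed level, XBS over MOD, was 1.10 with XBS 2 and 1.03 without it. This sum was made after the member rows had been seen.

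Other genes of the translation machinery were taken as lists, and none of their tested genes passed. Elongation factors (9 tested) had 7 positive and 2 negative fold changes with a median log2 fold change of 0.05, and Eef1a1, which brings aminoacyl-tRNA to the ribosome, averaged 7295 ± 396 CPM in XBS and 7431 ± 770 CPM in MOD (SD, n = 5). Other genes listed as having a terminal oligopyrimidine tract (16 tested) had 14 positive and a median of 0.09. Rack1, a scaffold on the small subunit, was among them at 580 ± 57.1 CPM in XBS and 519 ± 43.4 CPM in MOD (log2 fold change 0.16 ± 0.09 SE, edgeR adjusted p = 0.45). Initiation factors (34 tested) had 16 positive and 18 negative, with a median of -0.01. Eif1ax, which helps to find the start codon, averaged 138 ± 5.65 CPM in XBS and 152 ± 3.57 CPM in MOD (SD, n = 5; edgeR adjusted p = 0.313). Mitochondrial ribosomal proteins (72 tested) had 35 positive and 37 negative, with a median of -0.001.

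Genes that build ribosomes had mostly negative fold changes, and none passed. Biogenesis factors (61 tested) had 19 positive and 42 negative with a median of -0.06, against 0.01 over all genes tested. Among them Fbl, the methyltransferase of ribosomal RNA, averaged 30.6 ± 1.66 CPM in XBS and 40.1 ± 7.28 CPM in MOD (SD, n = 5; log2 fold change -0.39 ± 0.12 SE, edgeR adjusted p = 0.217). Chaperones of ribosomal proteins (20 tested) had 5 positive and 15 negative with a median of -0.07. Grwd1, a histone-binding assembly factor, had 15.6 ± 0.89 CPM in XBS and 19.1 ± 0.40 CPM in MOD, groups that did not overlap (log2 fold change -0.29 ± 0.08 SE, edgeR adjusted p = 0.181, DESeq2 adjusted p = 0.0431, the lowest of 21 alternatives, with 0.921 the highest).

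Regulators upstream of the ribosome did not pass with edgeR either. The mTOR list (20 tested) had 7 positive and 13 negative with a median of -0.09. Ddit4, an inhibitor of mTOR induced by stress and glucocorticoids, averaged 70.2 ± 18.5 CPM in XBS and 115 ± 12.4 CPM in MOD (SD, n = 5; log2 fold change -0.72 ± 0.16 SE, edgeR adjusted p = 0.121, DESeq2 adjusted p = 0.00428). Without XBS 5 its edgeR adjusted p was 0.0372, and over 21 alternatives it reached 0.905. Eif4ebp1, the repressor of initiation that mTOR phosphorylates, averaged 32.2 ± 4.87 CPM in XBS and 26.0 ± 2.06 CPM in MOD (edgeR adjusted p = 0.295). The MYC network (11 tested) had 8 positive and 3 negative with a median of 0.06, and Mycn had 4.46 ± 1.26 CPM in XBS and 2.12 ± 0.51 CPM in MOD, groups that did not overlap (log2 fold change 1.07 ± 0.25 SE, edgeR adjusted p = 0.135, DESeq2 adjusted p = 0.00994, and up to 0.766 over the alternatives). The list of ribosome stress and p53 (21 tested) had 13 positive and 8 negative with a median of 0.05. Eif2ak2, the kinase that stops initiation on sensing double-stranded RNA, averaged 89.5 ± 14.8 CPM in XBS and 68.7 ± 12.6 CPM in MOD (SD, n = 5; edgeR adjusted p = 0.323). From the same list, Cdkn1a, a cell cycle inhibitor driven by p53, averaged 41.2 ± 11.0 CPM in XBS and 79.8 ± 14.9 CPM in MOD, groups that did not overlap (log2 fold change -0.95 ± 0.18 SE, edgeR adjusted p = 0.0858, DESeq2 adjusted p = 0.000283, and up to 0.704 over the alternatives). Grwd1, Mycn and Cdkn1a were named for a small p within their lists, so their lack of overlap is no further support. Of all genes tested, 2.74% had groups that did not overlap.

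Fold changes of members with and without a C and at least 4 pyrimidines at the annotated start had close medians. Members at 50 CPM or more with that pattern (16 starts) had a median log2 fold change of 0.13, and those without it (32 starts) 0.14. Some starts without the pattern lie within a long pyrimidine run, such as Rpl27a (16 bases from -1) and Rps23 (17 bases from -2). The split therefore does not separate messenger RNAs that have the tract from those that lack it.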

How the data were processed

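Per the file headers, the deposited table gives read counts and FPKM for each gene in each library. The deposited counts were whole numbers, not normalized, with totals of 11998979 to 15518929 per library, so that 3 counts are 0.19 to 0.247 CPM (counting error only). FPKM equalled the count over length and total and was not used. The submitters' processing notes name hg38, GRCh38 and mm10, and the labels list the human bronchial cell line 16HBE, although the table holds rat identifiers. Aligner, counter, strandedness and rat build are details not given in the sources used here.

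Counts were filtered (filterByExpr, minimum count 10, total 15), scaled by TMM and tested by edgeR 4.0.16 (R 4.3.3; glmQLFit and glmQLFTest, robust) for XBS over MOD. The p-values were adjusted by Benjamini-Hochberg over the 14320 genes, with 0.05 as threshold, and a standard error is the fold change over the square root of F. Levels are CPM at the TMM-adjusted library size. DESeq2 1.42.0, limma 3.58.1 voom, other scalings and filters, a replicate block and leaving out libraries were alternatives, and the edgeR script was tested on simulated data. The members and lists were chosen with earlier results of these data known. Named genes were the 6 members of smallest p in each direction, the 4 highest and lowest per kilobase, paralogues and their partners, stalk and MDM2-binding members, names that are no ribosomal protein, and the 2 of smallest p of each pathway list. The most variable members and Eef1a1 were named after their values were seen.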

Additional observations from a re-analysis of the deposited data

Results flagged for a closer look

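In 6 of 84 groups of 5 libraries examined among the named members, 1 library stood far from the other 4 by Dixon's criterion, and chance flags about 5% of groups. XBS 2 stood apart in 4 of them. It was high for Rpl30 at 488 CPM (next XBS library 210.1 CPM), for Rps27 at 480 CPM (next 227 CPM), for Rpl36al at 27.5 CPM (next 14.5 CPM) and for the Rpl39 row on chromosome 14 at 9.48 CPM (next 4.11 CPM). The remaining flags were low MOD libraries. MOD 1 had 48.0 CPM of Rpl7l1, where the next MOD library had 56.7 CPM, and MOD 3 had 449 CPM of Rpl41, the shortest ribosomal protein, where the next had 554 CPM.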

How the results depend on the processing

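No member passed under any alternative. The number of all genes called was 11 and changed to 330 with DESeq2, 67 with limma voom, 3 without XBS 2 and XBS 3, 0 without MOD 4 and XBS 5, and 0 without XBS 2, MOD 2 and MOD 4 (added after seeing the data), with 4 to 15 when 1 library was left out (4 without MOD 4, XBS 2 or XBS 3, 5 without MOD 2 or XBS 1, 7 without MOD 3). A replicate block left 1 gene called. Same-numbered libraries correlated at 0.329, 0.215, -0.125, 0.0915 and 0.201, so the numbers were not taken as pairs. The members' median log2 fold change of 0.11 was 0.07 with voom and 0.07 with the block, ranged from -0.007 (without XBS 2) to 0.19 (without XBS 4), and was -0.03 without XBS 2, MOD 2 and MOD 4 and -0.04 without XBS 2 and XBS 3. The log2 ratio of the summed level was 0.13, and 0.04 to 0.19 when 1 library was left out. For 35 named members, 58 of 735 recomputed fold changes had the other sign, in 17 genes, and the lowest adjusted p was 0.123. Ddit4 also passed with voom (adjusted p = 0.0462) and Cdkn1a with the block (0.0271). The cause of these shifts was not tested.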
